A study of Mus musculus with 16 samples.

Results

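Skeletal muscle sarcomere genes were followed across 16 two-colour arrays of mouse offspring liver. The 10 genes were chosen because earlier values of these arrays showed them high on 1 array, and they were found by gene name among the 28783 gene names on the array: the troponin genes Tnni2, Tnnt3 and Tnnc2, the myosin light chain genes Myl1 and Mylpf, the myosin heavy chain genes Myh8 and Myh3, the actin gene Acta1, and Ckm and Actn2. Where a gene had several probes, the brightest in liver on average was taken. All 10 were found, and 8 of them passed the filter for testing, which asked for liver signal well above background on at least 3 arrays; Ckm and Actn2 did not pass, being above background on 1 array each.

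The offspring were born to time-mated C57BL/6BomTac mice that had inhaled UV-Titan, which is titanium dioxide in nano-sized particles with a coated surface, or filtered air. Exposure lasted 1 hour daily from gestation day 8 to 18, at about 42 mg/m3 of UV-Titan. The groups were male UV-Titan (4 animals), male control (4), female UV-Titan (5) and female control (3), with 1 array for each animal. Whether a liver was taken on postnatal day 2 or at weaning on days 23 to 24 is not stated in the labels, nor is which animals shared a litter, so p-values measure the spread between these samples. RNA came from randomly taken pieces of liver and was set on each array against a universal mouse reference RNA. Liver lay in the red channel. The median log2 ratio of red over green for 9 hepatocyte markers was 4.99 to 6.22 on the 16 arrays, with 6.08 on the array that stood apart below. On each array 57.7% to 67.1% of spots in red were well above background. Precision is limited by having 16 arrays. The numbers in animal names are those of the labels.

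Skeletal muscle contracts by the sliding of myosin filaments along actin filaments within the sarcomere. Troponin C binds calcium and, through troponin I and troponin T, frees the actin filament for myosin. Most of these proteins have separate genes for fast fibres, slow fibres and heart, and the myosin heavy chains also have embryonic and perinatal forms that are replaced as muscle matures. Hepatocytes have no sarcomere, and the vessels of the liver carry smooth muscle with its own isoforms.

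Probe sequences are printed for the genes whose values are described first. They lie in build mm7, the build of the array files, at chr11:67389989-67390048 (Myh8, plus strand), chr11:67366452-67366511 (another Myh8 probe, plus strand), chr11:67182921-67182980 (Myh3, plus strand), chr8:122479438-122479497 (Acta1, minus strand) and chr7:138939629-138939854 (Tnnt3, plus strand, spanning an intron). The capitals in the first Myh8 probe mark a run of 19 bases that a probe for Myh1, a gene of the same cluster, shares.
Myh8: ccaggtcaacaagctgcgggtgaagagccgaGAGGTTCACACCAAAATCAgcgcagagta
Myh8, other probe: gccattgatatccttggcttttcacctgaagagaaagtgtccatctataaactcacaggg
Myh3: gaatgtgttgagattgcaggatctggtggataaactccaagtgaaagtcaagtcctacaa
Acta1: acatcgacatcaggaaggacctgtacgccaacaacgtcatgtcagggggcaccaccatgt
Tnnt3: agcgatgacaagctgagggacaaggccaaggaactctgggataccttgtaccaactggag
The 5 skeletal heavy chain genes Myh3, Myh2, Myh1, Myh4 and Myh8 lie next to each other on chromosome 11 between 67078273 and 67308634 in GRCm38.p6, and Tnni2 and Tnnt3 lie on chromosome 7 with Lsp1 between them.

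All 10 genes had their highest log2 ratio on the same array, that of male UV-Titan animal 5. Measured as that array minus the median of the other 15, the difference in log2 ratio was above 1 for 9 of the 10 genes and had a median of 2.75 over the 10, with a range from 0.57 for Ckm to 4.06 for Myl1. Of all 18424 genes above background on that array, 50 (0.271%) were more than 1 log2 unit above the median of the other 15. The genes were chosen for this pattern, so these values describe the array and nothing is read from the count. Just inside that cutoff was Mylpf at 1.22, and the gene outside it was Ckm at 0.57.

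The red channel alone, quantile-normalised between arrays, gave a median difference of 2.85 over the 10 genes, with 9 above 1 (0.526% of all genes by red alone). The green channel alone, which holds the reference RNA, gave a median of 0.09. Myh8 was the 1 gene of the 10 whose green signal was also over 1 log2 unit higher on that array, at 167 against 64 to 85 on the other 15. Ratios for Myh8 therefore came out smaller than the change in red.

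**Figure D1:**
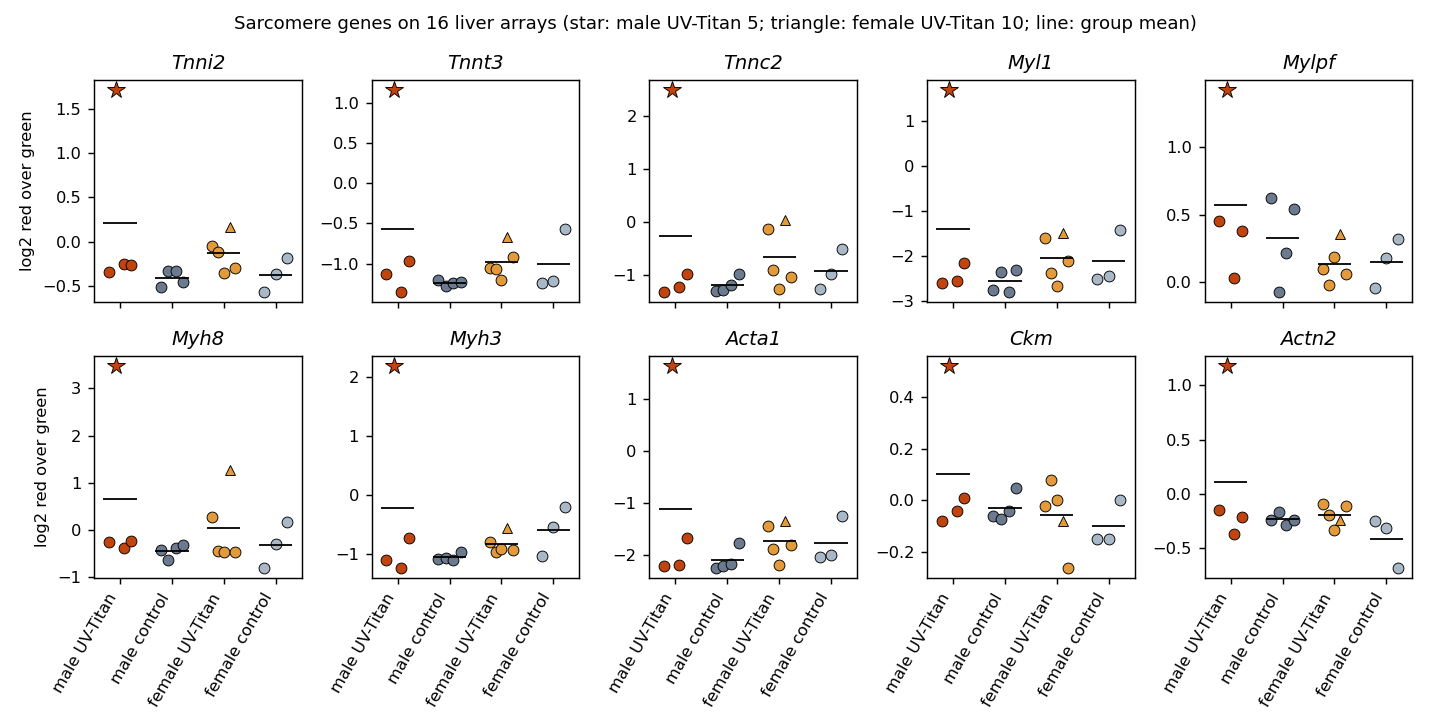
Log2 ratio of liver (red) over reference RNA (green) for the 10 sarcomere genes, 1 point for each of 16 animals, with the group mean as a line and a separate vertical scale for each gene. The star (male UV-Titan 5) is highest in every panel, from 0.52 for Ckm to 3.48 for Myh8, and the triangle (female UV-Titan 10) is second for Tnni2, Tnnc2 and Myh8.

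The developmental myosin heavy chains were among the genes with the largest differences. Myh8, the perinatal heavy chain, had log2 ratios of -0.25, 3.48, -0.39 and -0.24 in UV-Titan males 4, 5, 3 and 17, against -0.42, -0.64, -0.39 and -0.31 in control males 41, 31, 43 and 33. In females it had 0.28, -0.45, -0.46, 1.28 and -0.47 in UV-Titan animals 2, 8, 21, 10 and 16, against -0.80, -0.29 and 0.16 in controls 35, 40 and 25. Male UV-Titan 5 and female UV-Titan 10 and 2 stood above all controls, and the rest of each exposed group lay among them. The unnormalised red signal of Myh8 was 2715 in male UV-Titan 5 and 387 in female UV-Titan 10, with 97 to 167 on the other 14 arrays and a local background of 83 to 85.5. By red alone, male UV-Titan 5 was 31-fold above the median of the other 15.

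Myh3, the embryonic heavy chain, had log2 ratios of -1.09, 2.19, -1.23 and -0.73 in UV-Titan males 4, 5, 3 and 17, against -1.08, -1.06, -1.10 and -0.96 in control males 41, 31, 43 and 33. In females the ratios were -0.80, -0.97, -0.92, -0.55 and -0.93 in UV-Titan animals 2, 8, 21, 10 and 16, against -1.03, -0.54 and -0.20 in controls 35, 40 and 25. By ratio the exposed females lay within the range of the female controls. By log2 red alone female UV-Titan 10, at 7.42, was above the highest control, female 40, at 7.26. The green signal of female UV-Titan 10 for Myh3, 162, was the highest of the 16 arrays. The red signal was 818 in male UV-Titan 5 and 98 to 198 on the other 15 arrays, of which 6 were well above background.

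Probes for 1 heavy chain gene did not all move together. Of the 20 probes for 9 myosin heavy chain genes, 10 were more than 1 log2 unit above the median of the other 15 arrays on male UV-Titan 5. The first Myh8 probe above differed by 3.87, and the other one printed differed by 0.18, with a red signal of 100 against a median of 86. The 2 further Myh8 probes, made from other cDNA records, differed by 0.02 and 0.07. Both Myh3 probes moved, by 3.15 and 2.44, but they overlap in sequence, so they are not separate readings. The Myh1 probe that shares 19 bases with the Myh8 probe differed by 1.22, while the Myh1 probe with the highest signal differed by -0.07, so signal at the probe with the shared run cannot be assigned to 1 of these genes. The Myh8 value therefore rests on 1 of 4 probes.

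The fast troponins form the calcium switch of fast fibres. Tnnc2, which binds calcium, had log2 ratios of -1.31, 2.49, -1.22 and -0.98 in UV-Titan males 4, 5, 3 and 17, against -1.30, -1.27, -1.19 and -0.97 in control males 41, 31, 43 and 33. In females it had -0.13, -0.89, -1.25, 0.04 and -1.03 in UV-Titan animals 2, 8, 21, 10 and 16, against -1.26, -0.97 and -0.50 in controls 35, 40 and 25. UV-Titan females 10 and 2 were above all controls of both sexes, and the other UV-Titan animals except male 5 overlapped with them. Red signals were 2704 in male UV-Titan 5, 458 in female UV-Titan 10 and 170 to 362 on the other 14 arrays.

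Tnni2, the inhibitory subunit, had a red signal of 3436 in male UV-Titan 5 against 588 to 985 on the other 15 arrays, a 5.05-fold difference from their median by red alone. Its log2 ratio was 1.72 in that animal and -0.57 to 0.17 in the other 15, with female UV-Titan 10 at the upper end. Tnnt3, which holds the complex on the actin filament, had a red signal of 501 in male UV-Titan 5 and 105 to 154 in the others. Its 2 probes differed by 2.36 and 2.04 on the log2 ratio scale. The lowest troponin ratio of male UV-Titan 5, 1.16 for Tnnt3, was above the highest of the other 15 for that gene, -0.57 in female control 25.

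The light chains sit on the neck of the myosin head. Myl1, the essential light chain of fast muscle, had log2 ratios of -2.60, 1.68, -2.54 and -2.15 in UV-Titan males 4, 5, 3 and 17, against -2.74, -2.36, -2.79 and -2.30 in control males 41, 31, 43 and 33. In females the ratios were -1.59, -2.38, -2.66, -1.48 and -2.10 in UV-Titan animals 2, 8, 21, 10 and 16, against -2.50, -2.43 and -1.42 in controls 35, 40 and 25. After male UV-Titan 5 the highest ratio was that of a control, female 25. By log2 red alone the order differed, with female UV-Titan 10 at 7.89 and female UV-Titan 2 at 7.70. Female control 25 was at 7.35 by that measure. The red signal was 1845 in male UV-Titan 5 against 107 to 270 on the other arrays, and a second Myl1 probe differed by 0.57 where the first differed by 4.06.

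Mylpf, the regulatory light chain of fast muscle, stood out least among the genes that passed the filter. Its log2 ratios were 0.45, 1.42, 0.03 and 0.38 in UV-Titan males 4, 5, 3 and 17, against 0.62, -0.07, 0.22 and 0.54 in control males 41, 31, 43 and 33. In females they were 0.10, -0.02, 0.19, 0.36 and 0.06 in UV-Titan animals 2, 8, 21, 10 and 16, against -0.04, 0.18 and 0.32 in controls 35, 40 and 25. The next arrays after male UV-Titan 5 were control males 41 and 33, in contrast to the order for the troponins, and the red signal was 764 against 256 to 502.

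Acta1, the actin of the skeletal thin filament, had log2 ratios of -2.21, 1.64, -2.18 and -1.66 in UV-Titan males 4, 5, 3 and 17, against -2.24, -2.21, -2.17 and -1.76 in control males 41, 31, 43 and 33. In females they were -1.44, -1.88, -2.19, -1.34 and -1.80 in UV-Titan animals 2, 8, 21, 10 and 16, against -2.04, -2.00 and -1.24 in controls 35, 40 and 25. Apart from male UV-Titan 5, the exposed and control animals overlapped by ratio. By log2 red alone UV-Titan females 10 and 2, at 8.15 and 8.04, were above the highest control, male 33, at 7.83. The red signal was 1974 in male UV-Titan 5 and 154 to 323 in the others.

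Ckm, the muscle creatine kinase that buffers ATP, and Actn2, an actinin of the Z-disc, were measurable in male UV-Titan 5 and nowhere else. The red signal of Ckm was 151 in that animal and 88 to 103 on the other arrays, which gives a difference of at least 1.66-fold. That of Actn2 was 225 against 88 to 100, at least 2.77-fold. For this bound each dim array was given its lowest signal that counts as well above background, or the signal of the probe itself where that was higher.

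Fibre isoforms on male UV-Titan 5 were compared through lists of fast, slow, cardiac and developmental genes, always as that array minus the median of the other 15 on the log2 ratio scale. Of 10 other fast fibre genes 2 were above 1, Myh2, the IIa heavy chain, at 2.93 and Myh4, the IIb heavy chain, at 1.58. At these probes both were below background on the other 15 arrays, so the differences in red were at least 10.1-fold for Myh2 and at least 3.15-fold for Myh4. The other Myh2 probes differed by 2.90 and 0.65, the last of them above background on 2 arrays, and a second Myh4 probe differed by 0.04. The Myh2 probes at 2.93 and 2.90 overlap on the genome, so they are not separate readings. The Myh4 value rests on 1 of 2 probes, and the likeness of the probe at 1.58 to the Myh3 probes was not tested. Mybpc2, Myoz1, Actn3 and Atp2a1, also of fast fibres, differed by 0.40, 0.53, 0.46 and 0.15, and Pvalb and Casq1 were not above background on that array.

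Of 10 measured slow fibre genes 2 were above 1 by ratio and 4 by red alone. Myh7, the heavy chain shared by slow fibres and heart, differed by 2.53, with a red signal of 720 against 259 in female UV-Titan 10 and 118 to 165 on the other 14. Myl2, the slow and ventricular regulatory light chain, differed by 1.08 and was above background in male UV-Titan 5 alone, at least 2.10-fold by red. Of the slow troponins, Tnni1 differed by 0.51 in ratio but by 1.51 by red alone, with a red signal of 284 against 129 in female UV-Titan 10 and 111 to 156 on the other 14. Tnnt1 differed by 0.19 and Tnnc1 by -0.03. Myl3, the slow essential light chain, differed by 0.11, and Csrp3 by 0.96 (1.01 by red alone).

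Of 9 genes that mark the heart 0 passed 1 by ratio and 1 by red alone, Tnnt2 at 1.02. Myh6, the alpha heavy chain of the heart, was not above background on male UV-Titan 5. Tnnt2 differed by 0.98, Actc1 by 0.61, Tnni3 by 0.18, Mybpc3 by -0.07 and Myl7 by -0.09. Tnnt2 had 814 in red there, inside the range of 317 to 821 on the other 14 arrays. Actc1, the cardiac actin, had 283 against 279 in female UV-Titan 10 and 189 to 264 on the other 14.

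The list of markers of muscle cells that are still forming did not hold the heavy chains Myh3 and Myh8, nor Tnnt2 and Actc1. None of 12 measured developmental genes passed 1, and the largest difference was 0.32 for Myl4, the embryonic light chain. Myog and Myod1, which switch on the muscle programme, differed by 0.10 and 0.03, Cdh15 by 0.22 and Chrna1 by 0.17. Myf5, Musk and Chrng, which encodes the fetal subunit of the acetylcholine receptor, were not above background on that array. Of the 12 genes, 4 were below background on all arrays. Myog and Myod1 were dim on male UV-Titan 5, with red signals of 131 and 118, so small changes could be missed. At their brightest probes Myh3, Myh8, Myh2, Myh4 and Myh7 were thus high together on 1 array, while Myh1 was not. The other Myh8 probes differed by 0.02 to 0.18 and the other Myh4 probe by 0.04, so these 2 genes each rest on 1 probe. No value here fixes the age or kind of muscle, because levels of different probes cannot be set against each other.

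**Figure D2:**
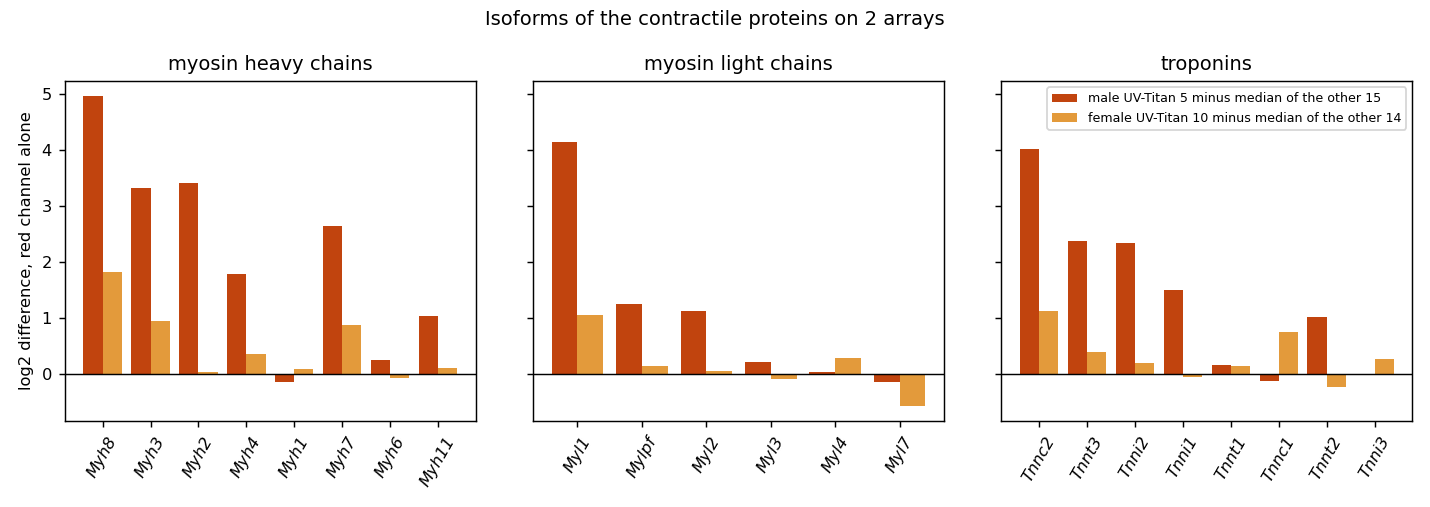
Difference in log2 red signal from the median of the remaining arrays for isoforms of myosin heavy chains, light chains and troponins, in male UV-Titan 5 (dark bars) and female UV-Titan 10 (light bars). Myh8 reaches 4.95 and 1.81 in the 2 animals, Myh7 2.65 and 0.88, and Tnnc1 -0.11 and 0.75.

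Other parts of the muscle fibre were tallied in the same way. In the sarcomere frame 2 of 24 genes passed 1, Tcap of the Z-disc at 1.02 and Myom2 of the M-band at 1.05, with Neb at 0.86 and Myot at 0.61. Ttn, which encodes the giant spring protein titin, differed by 0.23. Of 14 genes of excitation and contraction, 1 passed: Sln, a small inhibitor of the calcium pump, at 1.57. Srl, Cacna1s and Hrc differed by 0.61, 0.55 and 0.54 and Ryr1, the calcium release channel, by 0.03. Of 14 genes of muscle energy supply 0 passed by ratio and 1 by red alone, Cox8b at 1.02. By ratio Cox8b was at 0.98, Pgam2 and Fabp3 at 0.75 each, and Cox6a2 at 0.61. Over the striated muscle lists 77 of 93 measured genes were above 0, while the median of all genes was 0.01. Some of the 93 were below background on all arrays. By ratio, lists of other tissues also had medians above 0, such as 0.49 for hepatocyte, 0.21 for mesothelium and 0.18 for tendon genes. Those of brown fat, adrenal gland and exocrine pancreas were at -0.02, -0.05 and -0.06. A sign above 0 on this array was therefore not particular to muscle genes.

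Genes with the array pattern most like that of the sarcomere genes were found by Pearson's r with their mean log2 ratio, after centring each gene. Over 16 arrays the closest were Myh7 (0.966), Apobec2 (0.963), Smpx (0.960), Retn (0.937), Itgb1bp2 (0.933), Cox8b (0.929), Tcap (0.911), Sln (0.904), TC1445742 (0.897) and Myom2 (0.889). Over the 15 arrays without male UV-Titan 5 the closest included Rad51b (0.916), Arpp21 (0.857), NAP057003-1 (0.819), Tnni3 (0.802), Hist1h2bc (0.795), Sln (0.786), Rccd1 (0.782), Coro7 (0.771) and Myh7 (0.771). Sln and Myh7 were in both lists. Among the 8 tested sarcomere genes the median r over 28 pairs was 0.956 on 16 arrays, 0.728 without male UV-Titan 5 and 0.626 without female UV-Titan 10 as well. These coefficients are descriptions; the genes share arrays and normalisation.

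Male UV-Titan 5 was also high in genes of other tissues. The 10 genes outside the sarcomere set with the largest measured difference in log2 ratio on that array were Cfd (5.53), NAP025923-1 (4.32), Eif2s3y (3.91), Adipoq (3.57), Ddx3y (3.18), Myh2 (2.93), Myh7 (2.53), Dmbt1 (2.17), Cnn1 (1.90) and Mfap4 (1.66). Cfd and Adipoq were above background on 1 of the other 15 arrays and NAP025923-1 and Myh2 on 0, so the background floor sets the size of these 4 differences and they have no order. Eif2s3y and Ddx3y are Y-linked and were read against a median over both sexes. Of the 50 genes above 1, 9 were the sarcomere genes, 7 were on the other striated muscle lists, 4 on the white fat list, 2 on the smooth muscle list and 28 on none of the lists. Those 28 included the collagen genes Col1a1 and Col3a1, and Dpt, Mgp, Thbs4, Krt19, Reg1, Anxa13, Cav3 and Pdlim3. They also included Dmbt1, Mfap4, Eif2s3y and Ddx3y, and they were not sorted by tissue.

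White fat markers moved with the sarcomere genes on this array. Of 5 markers 4 passed 1. Cfd, adipsin, had a red signal of 10353 in male UV-Titan 5 against a median of 96 on the other 15. Adipoq, adiponectin, had 1034 against a median of 96. Plin1, which coats the lipid droplet, had 251 against 95 in female UV-Titan 10 and 90 to 107 on the other 14. Retn, resistin, differed by 1.15 in log2 ratio, and Lep, leptin, was not above background. The mean log2 red over the 5 markers was 6.30 to 9.07 in UV-Titan males and 6.28 to 6.36 in control males, with 6.24 to 6.43 on the other 14 arrays (female UV-Titan 10 had 6.41).

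Smooth muscle gave 2 of 8 markers above 1, Cnn1 at 1.90 and Myh11 at 1.13, while Acta2 differed by 0.23 and Tagln by 0.46. Cnn1 had a red signal of 737 in male UV-Titan 5, and another array reached 915. Myh11 had 360 in male UV-Titan 5, inside the range of 144 to 518 on the other 14 arrays. The lists for brown fat, skin, cartilage and bone, tendon, nerve, mesothelium, adrenal gland, lung and exocrine pancreas each had 0 markers above 1. Ucp1, of brown fat, was below background in male UV-Titan 5. Hepatocyte markers in the same animal had 0 of 9 above 1, with a median difference of 0.49 in log2 ratio and -0.03 by red alone, and their mean log2 red was 16.9 against 16.8 to 17.1 on the other 14 arrays. The part of fat or other tissue in the sarcomere values was not tested. In pieces of bulk tissue, more cells of a type and more RNA per cell cannot be told apart.

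Female UV-Titan 10 was the second array by the mean of the centred sarcomere genes. That mean was 2.57 in male UV-Titan 5, 0.57 in female UV-Titan 10, 0.34 in female UV-Titan 2, 0.38 in female control 25 and -0.17 to 0.14 on the other 12 by log2 ratio. By red alone the same arrays had 2.82, 0.63, 0.42 and 0.19. Female UV-Titan 10 was second for 3 genes, female control 25 for 4 and female UV-Titan 2 for 1 by ratio.

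With male UV-Titan 5 left aside, female UV-Titan 10 was more than 1 log2 unit above the median of the other 14 for 3 of the 10 genes by red alone, against 0.173% of all genes above background there. The genes were Myh8 at 1.81, Tnnc2 at 1.13 and Myl1 at 1.06, with Myh3 at 0.94, Acta1 at 0.75, Tnnt3 at 0.39, Tnni2 at 0.20 and Mylpf at 0.15. This array was picked for its mean over the same genes, so the counts describe it. By log2 ratio 2 genes passed (0.0726% of all genes), Myh8 at 1.67 and Tnnc2 at 1.15, while Myl1 was at 0.93 and Myh3 at 0.42. Other probes of these genes were by ratio at -0.08 for Myl1, -0.20 for Myh3, 0.27 for Tnnt3 and -0.03 to 0.15 for Myh8. Ckm and Actn2 were below background in this animal, with differences of 0.06 and 0.03 in red. This array had no part in the median of the rest, and no replicate exists to test 1 animal against.

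Other muscle genes in female UV-Titan 10 were set beside those of male UV-Titan 5. Myh7 was 0.88 and Sln 0.65 above the other 14 by red alone in female UV-Titan 10, against 2.65 and 1.81 in male UV-Titan 5. By red against the median of the 15 arrays other than male UV-Titan 5, female UV-Titan 2 had Sln at 1.01 and Tnnc2 at 1.13, and female control 25 had Sln at 0.59. Myh2 was at 0.05 in female UV-Titan 10 and Tnnc1, the slow and cardiac troponin C, at 0.75, the red signal of Tnnc1 being 409 in female UV-Titan 10, 210 in male UV-Titan 5 and 200 to 289 elsewhere. White fat markers did not accompany them. Adipoq differed by 0.01, Cfd by 0.24 and Plin1 by -0.11 in red, 0 of 5 passed 1, and the largest was Retn at 0.42. The difference between the 2 animals was not tested, as each is a single sample.

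**Figure D3:**
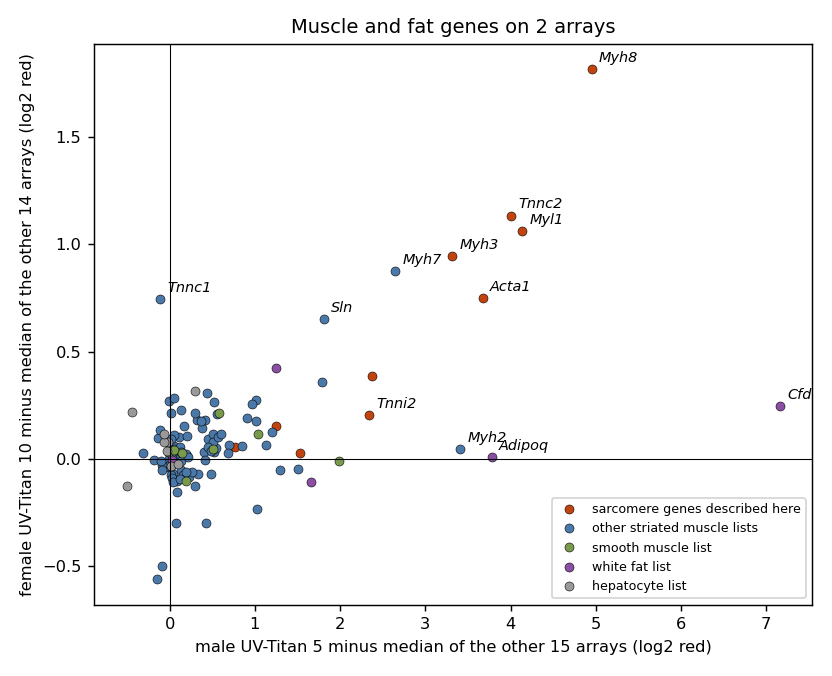
Each point is one of the sarcomere genes or a gene of the striated muscle, smooth muscle, white fat or hepatocyte lists. Lists of other tissues are not drawn. The log2 red difference from the remaining arrays is on the horizontal axis for male UV-Titan 5 and on the vertical axis for female UV-Titan 10. Myh8, Tnnc2, Myl1, Myh3, Acta1 and Myh7 are to the upper right, while Cfd (7.16 and 0.24), Adipoq (3.78 and 0.01) and Myh2 (3.41 and 0.05) lie along the horizontal axis.

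The exposure question was whether maternal UV-Titan changed these genes in the offspring's liver, asked in each sex with limma. In males the 8 tested genes were all higher in UV-Titan than in control animals by a median of 0.88 (log2 ratio, range 0.24 to 1.14), while 56.6% of all tested genes were higher. This contrast holds the array the genes were chosen on, so it is a description. With an adjusted p under 0.05 as the threshold, 0 of the 8 were called, as were 0% of all 19382 genes. Myh8, for example, averaged 0.65 ± 1.89 in UV-Titan males (SD, n = 4) and -0.44 ± 0.14 in control males (SD, n = 4).

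Without male UV-Titan 5 the male differences were near 0. The median over the 8 genes fell to 0.08, with a range of -0.04 for Mylpf to 0.15 for Myh8 and SEs of 0.11 to 0.34, and 7 of 8 were higher, against 56.1% of all genes. Limma called 0 of 8 (0% of all genes), with an adjusted p of 0.9998 for each and a lowest unadjusted p of 0.281, for Tnni2. Myh8 averaged -0.29 ± 0.08 in UV-Titan males (SD, n = 3) and -0.44 ± 0.14 in control males (SD, n = 4). Tnnc2 averaged -1.17 ± 0.17 in UV-Titan males (SD, n = 3) and -1.18 ± 0.15 in control males (SD, n = 4).

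In females 6 of the 8 genes were higher in UV-Titan than in control animals and 2 lower, with a median of 0.05 and a range of -0.24 for Myh3 to 0.34 for Myh8. Limma called 0 of 8 (0% of all genes, of which 58.5% were higher), with adjusted p from 0.941 to 0.997. When the spread was estimated without male UV-Titan 5, SEs were 0.11 to 0.32. In that fit Tnni2 had a difference of 0.24 ± 0.11 (SE) and an unadjusted limma p of 0.0434, which gave an adjusted p of 0.697; 6.85% of all genes had an unadjusted p under 0.05 there. Myh8 averaged 0.03 ± 0.77 in UV-Titan females (SD, n = 5) and -0.31 ± 0.48 in control females (SD, n = 3). Single arrays moved these small differences either way. Without female UV-Titan 10, 3 of 8 were higher and the median was -0.06, and without female control 25, 7 of 8 were higher and the median was 0.31. Without female control 35 the median was -0.10, without female control 40 it was -0.03, without female UV-Titan 2 it was 0.02, and without female UV-Titan 8 or 21 it was 0.11 or 0.19.

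**Figure D4:**
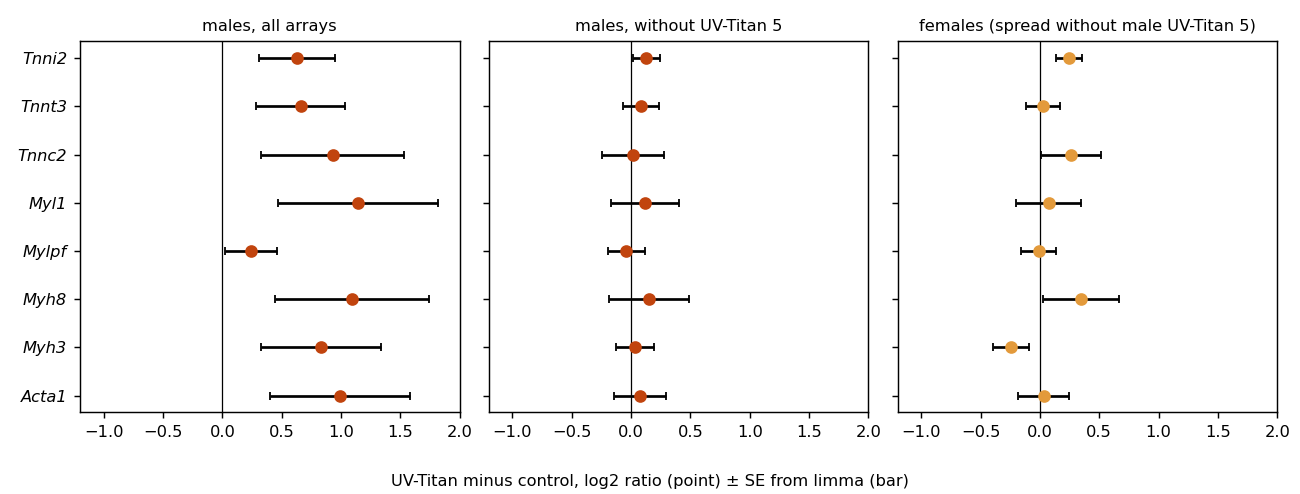
UV-Titan minus control difference in log2 ratio with its limma standard error for the 8 tested sarcomere genes, in males on all arrays (left), males without UV-Titan 5 (middle) and females with the spread estimated without male UV-Titan 5 (right). The male points run from 0.24 to 1.14 on all arrays and from -0.04 to 0.15 without that animal, and the female points from -0.24 to 0.34.

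Slides held both exposures of a sex in 6 cases, each with 1 UV-Titan and 1 control array. The median UV-Titan minus control difference over the 10 genes was 0.05 on slide 1, 2.84 on slide 2 and -0.02 on slide 3 in males, where slide 2 carried male UV-Titan 5. In females it was 0.38 on slide 1, 0.53 on slide 4, which carried female UV-Titan 10, and -0.44 on slide 5, which carried female control 25.

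The female effect minus the male effect was lower than 0 for 8 of 8 genes on all arrays, with a median of -0.71. Without male UV-Titan 5 it was lower than 0 for 4 of 8, with a median of -0.01. The medians of all tested genes were 0.008 and 0.007. Males minus females, averaged over exposure, was above 0 for 8 genes on all arrays (median 0.12, all tested genes -0.002). Both comparisons on all arrays hold the array the genes were chosen on, so those values are descriptions. Without male UV-Titan 5, males minus females was above 0 for 1 gene, Mylpf at 0.16, and below 0 for 7. The median was then -0.27, against -0.003 for all tested genes. The unadjusted limma p in that fit was under 0.05 for 2 genes, 0.0112 for Myh3, at -0.32 ± 0.11 (SE), and 0.0445 for Tnnc2, and the adjusted p was 0.999 for both. Of all genes 3.54% had an unadjusted p under 0.05 in that comparison. Limma called 0 of the 8 genes in either comparison, and 0.0464% of all genes were called between the sexes on all 16 arrays and 0.0413% without male UV-Titan 5.

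Promoter windows show what sequence the sarcomere genes share ahead of their starts. RefSeq windows of 300 bases in GRCm38.p6, from 250 bases before each start to 50 after it, were at hand for 8 of the 10 genes and are not used here for Tnni2 and Tnnt3. The E-box CANNTG, the core bound by MyoD family factors, was searched on both strands and was in 8 of 8 windows and in 72.3% of all 32851 windows. Its form CAGCTG, a subset of the E-box, was in 4, those of Acta1, Ckm, Myl1 and Mylpf, and in 16.3% of all. A CArG box, bound by serum response factor, was in the Acta1 window alone at position -73 (1.63% of all windows), and a MEF2 site in that of Myh8 alone at position -99 (3.19%). The windows with those sites are chr8:123894726-123895025 (Acta1, minus strand) and chr11:67276874-67277173 (Myh8, plus strand), with E-boxes, the CArG box and the MEF2 site in capitals.
Acta1: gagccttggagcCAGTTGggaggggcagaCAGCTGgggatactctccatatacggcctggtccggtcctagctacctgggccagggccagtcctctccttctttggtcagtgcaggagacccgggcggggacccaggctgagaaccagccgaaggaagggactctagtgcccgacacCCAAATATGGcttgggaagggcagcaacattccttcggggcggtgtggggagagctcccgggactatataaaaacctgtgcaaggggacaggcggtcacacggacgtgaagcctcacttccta
Myh8: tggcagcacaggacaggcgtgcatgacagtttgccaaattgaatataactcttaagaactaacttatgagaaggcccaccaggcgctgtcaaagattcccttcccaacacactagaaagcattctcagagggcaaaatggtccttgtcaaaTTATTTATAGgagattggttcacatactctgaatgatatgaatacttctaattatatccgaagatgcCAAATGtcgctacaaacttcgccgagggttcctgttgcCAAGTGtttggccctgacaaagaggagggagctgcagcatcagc
A match is a description of letters in the window, and binding was not measured in these livers.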

How the data were processed

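RNA of 16 livers was measured on Agilent two-colour arrays on 5 slides scanned on 4 days. Spot intensity values were deposited as scanned (mean signal and local background), and the authors' Feature Extraction 9.5.3.1, per the labels, also gave processed intensities that the file headers describe as background-subtracted and dye-normalised. The deposited log10 ratios of these processed signals, red over green per the file headers, were not used. A deposited table of log2 ratios was used as an alternative; its scale and direction were read by setting it against the scanner signals (r 0.882 to 0.992, slope 0.879 to 1.02), its column medians were -0.045 to -0.0375, and its centring is not stated. The labels disagree on the dye of liver, Cy3 in the sample fields and Cy5 in the protocol; hepatocyte markers and sex-linked genes pointed to red, Cy5.

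Intensities were corrected with normexp (offset 50) and loess in limma 3.58.1 (R 4.3.3), spots marked as outliers (90 to 135 per array) were left out, 0 of 45018 spots were saturated, and spots of a probe were averaged. For red alone, corrected signals were quantile-normalised between arrays, and folds compare log2 values that include the offset, which understates changes of dim probes. Accessions were matched to GRCm38.p6 symbols for 12373 of 19382 tested genes, and 7009 kept the array's name, which can be old. One limma model with 4 group means gave each comparison, with two-sided tests and Benjamini-Hochberg adjustment over all tested genes. The code was tested on simulated data. Other normalisations, filters, probe rules, batch blocks and each array left out were tried.

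The sarcomere genes and the lists were chosen with earlier results of these data known. The text names the 10 genes, members of each muscle list with the largest differences, the heavy chain, light chain and troponin genes, the 10 genes most like them (1 of which is not reported here) and the 10 with the largest differences; Cdh15, Chrna1, other developmental genes and the tissue markers come from their lists and were picked for naming after their values were seen. Genes on none of the lists were also picked for naming after their values were seen. No deposited column lacked a sample (0 columns).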

Additional observations from a re-analysis of the deposited data

Results flagged for a closer look

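Within each group of 4 or 5 animals, the highest and lowest log2 ratio of each sarcomere gene was set against the others by Dixon's criterion, for 30 groups in all, of which 1.5 would be expected to stand apart by chance at a rate of 1 in 20. Male UV-Titan 5 stood apart in its group for 9 genes. Its values were 3.48 for Myh8, 2.49 for Tnnc2, 2.19 for Myh3, 1.72 for Tnni2, 1.68 for Myl1, 1.64 for Acta1, 1.18 for Actn2, 1.16 for Tnnt3 and 0.52 for Ckm. The genes were chosen on this array and move together over the same arrays. These 9 are therefore a description and cannot be set against the 1.5. The remaining value was that of Acta1 in male control 33, at -1.76 above the other control males at -2.24 to -2.17.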

How the results depend on the processing

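The median over the 10 genes of male UV-Titan 5 minus the other 15 arrays, 2.75 as reported, was 4.33 with Feature Extraction's processed signals, 3.39 with a normexp offset of 16, 3.34 over the 8 genes that passed the filter on dim probes and 2.13 with the mean over a gene's probes. It was 2.85 by red alone, 2.74 in the authors' deposited table and 2.73 to 2.76 when each other array was left out, and it was positive under every alternative run. For counts of genes called, 0 in each of 4 comparisons, 104 of 104 alternative counts were 0 as well; the alternative without both male UV-Titan 5 and female UV-Titan 10 was chosen after seeing the data. In limma 1294 genes had an unadjusted p under 0.05 in females and 957 in males. Leaving out 1 array turned the sign of the uncalled female differences of Tnnt3 (-0.09 to 0.25), Myl1 (-0.12 to 0.42), Mylpf (-0.11 to 0.07) and Acta1 (-0.11 to 0.29). No paired analysis was possible because the groups share no replicate numbers in the labels; this concerns pairing by number only, and with slide as a block 0 of the 8 genes were called in each comparison. Signals of Ckm, Actn2, Myh2, Myh4, Cfd, Adipoq and NAP025923-1 near background limit what the other 15 arrays can show for them.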
